A study of Mus musculus with 18 samples.

Results

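Small RNA in the EV released by LPS-treated DC (LPS-EV) was set directly against small RNA in the EV released by VitD3-treated DC (VitD3-EV), with 3 libraries in each group, so 6 of the 18 libraries of the series. The libraries were chosen by their labels alone, and every RNA in the count table entered by its class. The parent cells were primary mouse bone marrow cells grown into DC (BMDC) in medium with GM-CSF. For LPS-EV the cultures received LPS, an outer membrane molecule of bacteria that triggers DC maturation, for 24 h. For VitD3-EV they received VitD3, the active form of vitamin D, at 10 nM for 12 days, which drives DC to a tolerance-promoting state. The treatments therefore differed in duration as well as in agent, and those effects cannot be told apart. Untreated cultures of the same replicate numbers gave control-EV, which are quoted beside the comparison. By the study's methods, cells were recovered the day after LPS was added and cultured further in EV-depleted medium. EV were purified from that medium by differential centrifugation and a sucrose density gradient, and ribosomal RNA was depleted before adapters were ligated. GM-CSF cultures of bone marrow can hold other myeloid cells beside DC, and in such bulk samples fewer cells or vesicles of a type and less of an RNA in each cannot be told apart.

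EV are membrane particles that cells release and that carry RNA, and the small RNA in them comprises several classes. miRNA are short guides that repress messenger RNA, mostly through their seed, bases 2 to 8 from the 5′ end, so that miRNA with the same seed share many targets. snoRNA direct chemical modification of ribosomal RNA, snRNA form the splicing machinery, tRNA carry amino acids to the ribosome, and Y-RNA are short polymerase III transcripts that bind the Ro60 protein. In DC and macrophages, signalling from Toll-like receptors through NF-κB induces a well known group of miRNA, with miR-155 and miR-146a at its centre.

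The sequences of the miRNA on which the comparison turned are shown from RefSeq (GRCm38.p6), with the seed in capitals, so that related members can be read side by side. Of the 27 miRNA that passed the test below, 24 had a sequence under that name, and these held 23 distinct sequences and 22 distinct seeds. The following were higher in LPS-EV.
miR-155-5p: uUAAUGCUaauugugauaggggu
miR-146a-5p: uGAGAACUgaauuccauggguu
miR-9-5p: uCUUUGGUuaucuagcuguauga
miR-9-3p: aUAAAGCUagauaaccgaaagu
miR-7a-5p: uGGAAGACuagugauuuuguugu
miR-142a-3p: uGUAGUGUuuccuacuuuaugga
The following were higher in VitD3-EV.
miR-10a-5p: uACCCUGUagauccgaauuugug
miR-10b-5p: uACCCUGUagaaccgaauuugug
miR-27b-3p: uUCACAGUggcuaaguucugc
miR-222-3p: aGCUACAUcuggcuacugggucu
miR-223-5p: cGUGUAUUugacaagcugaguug
miR-708-3p: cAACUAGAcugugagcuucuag
Relatives that share a seed or a hairpin with a member above, but did not pass, are shown because the ratio of each pair is given further on.
miR-146b-5p: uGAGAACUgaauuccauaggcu
miR-27a-3p: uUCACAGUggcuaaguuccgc
miR-221-3p: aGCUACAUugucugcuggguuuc
miR-223-3p: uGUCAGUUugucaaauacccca
Counted from 1 at the 5′ end and naming the first miRNA's base first, miR-27b-3p and miR-27a-3p differ by U19C alone. miR-146a-5p and miR-146b-5p differ by G18A and U21C, and miR-10a-5p and miR-10b-5p by U12A. miR-222-3p and miR-221-3p share the seed but differ at 12 bases after it. miR-155-5p lies at chr16:84714143-84714165 (plus strand), miR-146a-5p at chr11:43374435-43374456 (minus), miR-10a-5p at chr11:96317186-96317208 (plus) and miR-27b-3p at chr13:63300760-63300780 (plus). miR-9-5p has identical copies on chromosomes 3, 7 and 13, and its reads could not be assigned to one of them.

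LPS-EV libraries held 406199 to 2711299 counted reads, 28568 to 201307 of them miRNA, and VitD3-EV libraries 765088 to 1887930, with 39535 to 117932 miRNA reads. LPS-EV 2, the second LPS-EV library, was the smallest and held 52.9% rRNA. Replicate 3 was sequenced in run 2 and replicates 1 and 2 in run 1, in both groups. Values per library are normalized counts, meaning CPM, reads scaled to the reads of the same RNA class with TMM factors, and are listed in the order of replicates 1, 2 and 3. log2FC is LPS-EV over VitD3-EV, so that negative values stand for more in VitD3-EV, and ± after a log2FC is its SE. FDR is the Benjamini-Hochberg adjusted p, within a class, of edgeR's quasi-likelihood test with the replicate number as a block.

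Of 249 miRNA tested, 27 differed at FDR below 0.05 and over 2-fold, which is 10.8%. LPS-EV had more of 11 (4.42%) and VitD3-EV more of 16 (6.43%). Folds were 2.01 to 8.25 for those higher in LPS-EV and 2.35 to 32.8 for those higher in VitD3-EV. In 26 of the 27 the direction was the same in 3 of 3 replicate pairs, and in 21 the 3 libraries of one group all lay above those of the other, against 49 of all 249 tested (19.7%). The median log2FC of all tested miRNA was -0.015. Without replicate 3 the count was 11, without LPS-EV 3 it was 15 and without VitD3-EV 3 it was 14. A fit without the replicate block called 4, namely miR-155-5p, miR-9-5p, miR-146a-5p and miR-223-5p.

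**Figure D1:**
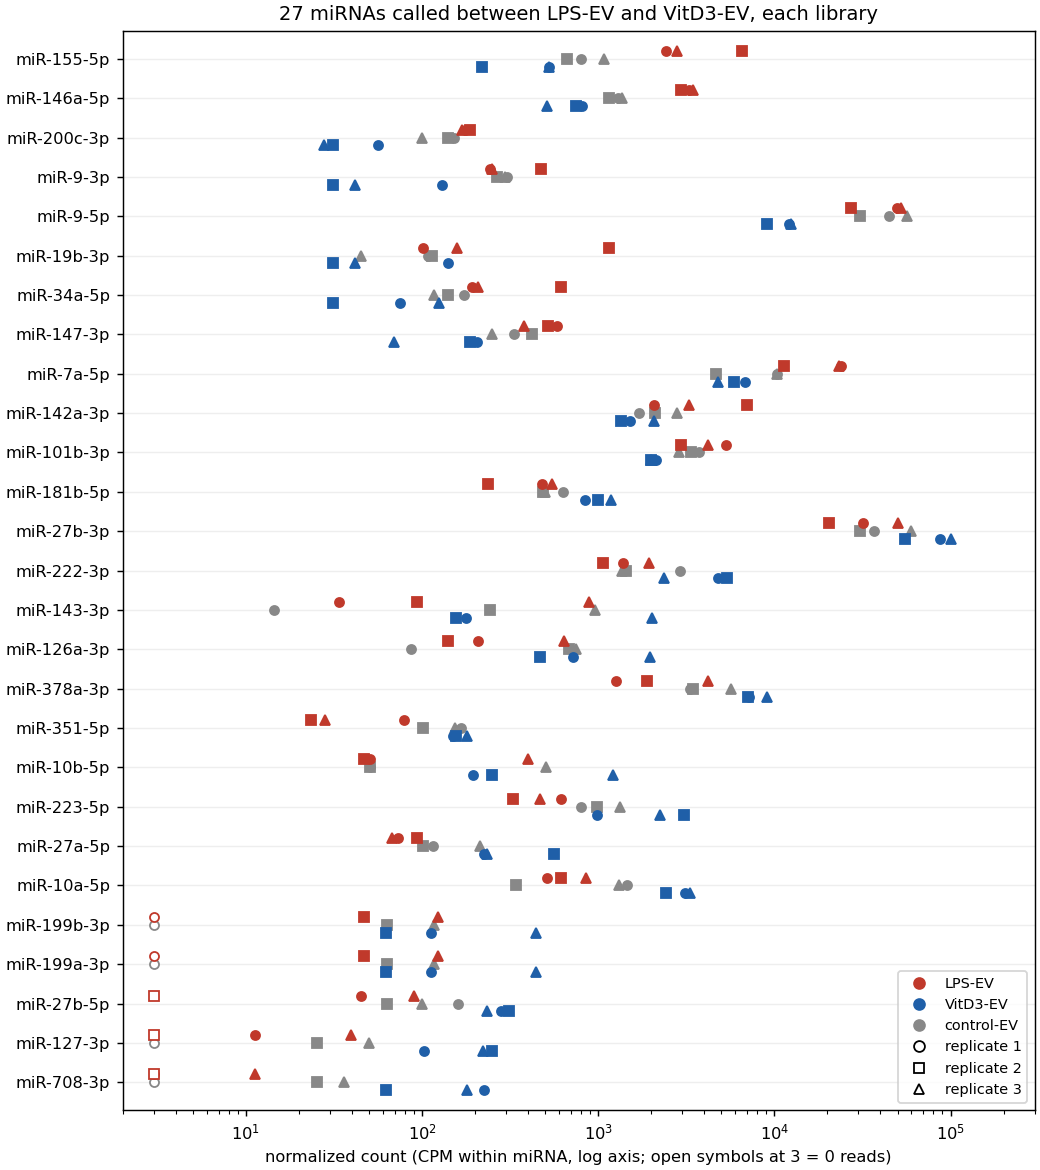
Normalized counts (CPM within miRNA, log axis) of the 27 called miRNA in each of 3 LPS-EV (red), 3 VitD3-EV (blue) and 3 control-EV (grey) libraries, with symbols for the replicate number and open symbols at the left for libraries with 0 reads. miR-155-5p and miR-9-5p keep red and blue apart in 3 of 3 replicates, whereas miR-126a-3p, miR-10b-5p, miR-199a-3p and miR-143-3p are highest in replicate 3 of both groups and overlap.

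miR-155-5p, which is induced by Toll-like receptors and represses inhibitors of cytokine signalling, had 2428, 6591 and 2794 normalized counts in LPS-EV against 522, 218 and 525 in VitD3-EV. The groups lay far apart, and LPS-EV 2 was the highest of all libraries. The log2FC was 3.04 ± 0.34 (FDR 3.23e-16), which was the lowest FDR of any miRNA. control-EV, at 803, 661 and 1081, lay between. Its other arm miR-155-3p was rarely read and did not pass (log2FC 1.46 ± 1.95, FDR 0.744).

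miR-146a-5p, which represses adaptors of Toll-like receptor signalling, had 3257, 2966 and 3447 normalized counts in LPS-EV and 811, 748 and 512 in VitD3-EV. Libraries within a group were close to each other and the groups did not overlap. The log2FC was 2.24 ± 0.32 (FDR 4.9e-10), with control-EV between at 1302, 1145 and 1371.

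Both arms of miR-9, known for its abundance in brain and for targeting NFKB1 in human monocytes, were higher in LPS-EV. miR-9-5p had 49760.3, 27280.2 and 52418 normalized counts in LPS-EV against 12156, 9034 and 12456 in VitD3-EV (log2FC 1.90 ± 0.25, FDR 2.03e-11). Of all miRNA reads it took 4.06% to 5.10% in the first group and 0.734% to 1.11% in the second. miR-9-3p had 242, 471 and 248 against 131, 31.2 and 41.5 (log2FC 1.97 ± 0.55, FDR 0.00528), on 14, 1 and 3 reads in VitD3-EV. The call of miR-9-3p held in 17 of 22 other settings and was lost without replicate 3. The control lay near LPS-EV for both arms, as control-EV held 44453, 30423 and 56756 of miR-9-5p and 304, 267 and 294 of miR-9-3p. Against control-EV, miR-9-5p had a log2FC of -0.03 in LPS-EV (FDR 0.986) and -1.94 in VitD3-EV (FDR 1.55e-11).

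miR-7a-5p, best known from neurons and pancreatic islets, had 23753, 11275 and 23336 normalized counts in LPS-EV and 6796, 5888 and 4756 in VitD3-EV. The lowest LPS-EV library was still above the highest VitD3-EV library. The log2FC was 1.65 ± 0.27 (FDR 3.42e-08), and 1.21 in LPS-EV over control-EV (FDR 0.000388).

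The calls of the other members higher in LPS-EV, like that of miR-9-3p, were lost in several alternative settings. miR-142a-3p, a miRNA of blood cells, had 2062, 6967 and 3267 normalized counts against 1510.2, 1339.6 and 2059.8 (log2FC 1.17 ± 0.30, FDR 0.00171). LPS-EV 1 barely exceeded VitD3-EV 3, and without LPS-EV 2 the log2FC was 0.58 (FDR 0.107, between 0.000199 and 0.169 over all settings). miR-147-3p, induced by Toll-like receptors in mouse macrophages, had 586, 518 and 377 against 205, 187 and 69.1 (log2FC 1.74 ± 0.47, FDR 0.00359). miR-101b-3p, a repressor of Ezh2, had 5290.4, 2942 and 4202 against 2125, 1994 and 2005 and was just past 2-fold (log2FC 1.01 ± 0.28, FDR 0.00528). The groups did not overlap for either, but miR-101b-3p kept its call in 9 of 22 other settings.

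miR-200c-3p, of an epithelial family that targets Zeb factors, had 175, 188 and 169 normalized counts in LPS-EV against 55.9, 31.2 and 27.6 in VitD3-EV (log2FC 2.11 ± 0.69, FDR 0.0203). The family did not move as 1, as miR-200b-3p, which shares the seed, had a log2FC of -0.91 ± 0.65 (FDR 0.469). Of 4 epithelial markers tested, 2 had a positive log2FC and 2 a negative one. miR-34a-5p, a p53 target, had 192, 612 and 208 against 74.6, 31.2 and 124 (log2FC 1.75 ± 0.57, FDR 0.0207). Both rested on few reads, 6, 1 and 2 in VitD3-EV for miR-200c-3p and 8, 1 and 9 for miR-34a-5p. Of 22 other settings, 11 kept the call of miR-200c-3p and 9 that of miR-34a-5p, whose log2FC without LPS-EV 2 was 1.15 (FDR 0.197, between 0.00739 and 0.267 over all settings). miR-19b-3p, of the miR-17-92 cluster, was the only called miRNA whose direction was not shared by every pair, with 101, 1153 and 158 against 139.8, 31.2 and 41.5 (log2FC 1.86 ± 0.59, FDR 0.0175). Without LPS-EV 2, which alone stood high, its log2FC was 0.80 (FDR 0.595, within 0.00129 to 0.668 over settings).

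Among miRNA higher in VitD3-EV, miR-10a-5p had the lowest FDR; its gene sits among the Hoxb genes. It had 513, 612 and 851 normalized counts in LPS-EV against 3104, 2430.0 and 3304 in VitD3-EV (log2FC -2.19 ± 0.33, FDR 1.7e-09). Each VitD3-EV library held more than any LPS-EV library. control-EV varied more, at 1462, 343 and 1307. miR-10b-5p, from the Hoxd genes and 1 base different, had 50.7, 47.1 and 399.9 against 196, 249 and 1217 (log2FC -1.87 ± 0.50, FDR 0.00336). VitD3-EV was higher in each pair, but replicate 3 was high in both groups and the groups overlapped.

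miR-378a-3p, encoded in an intron of the metabolic coactivator gene Ppargc1b, had 1268, 1883 and 4225 normalized counts in LPS-EV against 7187, 7072 and 9027 in VitD3-EV. The groups were apart although LPS-EV 3 was above its group. The log2FC was -1.82 ± 0.28 (FDR 7.4e-09). Of the miR-378 family, 3 members were tested, all 3 had a negative log2FC and this 1 was called.

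miR-27b-3p, which represses Pparg among other targets, was among the most-read miRNA, with 31810.1, 20525 and 50356 normalized counts in LPS-EV against 87423, 55235 and 100130.5 in VitD3-EV (log2FC -1.29 ± 0.25, FDR 5.12e-06). Its share of miRNA reads was 3.05% to 4.44% against 4.48% to 7.95%. It fell under the 2-fold limit with class total scaling (log2FC -0.85) and with TMM over all classes (-0.998). The rarer arm miR-27b-5p moved the same way, with 8, 0 and 16 reads against 30, 10 and 17, a pooled ratio of VitD3-EV to LPS-EV, on the TMM scale, of 4.46 (exact 95% interval 2.72 to 7.51, counting error only). From the related hairpin on chromosome 8, miR-27a-5p had 73.2, 94.2 and 67.6 normalized counts against 224, 561 and 235 (3.99-fold, FDR 0.00528), and missed the threshold with the same 2 scalings (FDR 0.0744 and 0.0734, between 0.00429 and 0.147 over all settings). Its own 3p arm, miR-27a-3p, did not follow, with 3245, 3437 and 4557 against 3160.2, 1558 and 3318 (log2FC 0.47 ± 0.28, FDR 0.355). Of 9 members of the miR-23/27/24 clusters tested, 3 were called, all higher in VitD3-EV, and 6 had a negative log2FC. Among the rest, miR-24-3p had a log2FC of -0.79 ± 0.27 (FDR 0.0261), under 2-fold.

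miR-222-3p, which represses the cell cycle inhibitor p27, had 1386, 1059 and 1938 normalized counts in LPS-EV and 4764, 5358 and 2364 in VitD3-EV (log2FC -1.43 ± 0.30, FDR 5.18e-05). VitD3-EV 3 was close to LPS-EV 3, yet no library crossed. miR-221-3p, whose hairpin lies 505 bases away on the X chromosome, had a log2FC of -0.18 ± 0.32 (FDR 0.787). miR-223-5p, an arm of the myeloid miRNA miR-223, had 614, 329.5 and 468 against 979, 3084 and 2253 (log2FC -1.97 ± 0.34, FDR 2.83e-07). Its other arm miR-223-3p had a log2FC of 0.03 ± 0.52 (FDR 0.988), with 101, 636 and 225 against 139.8, 187 and 373. Thus only the 5p arm of this hairpin was called. The ratio of its arms within a library, given further on, overlapped between the groups.

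The fold of miR-708-3p was the highest of all called RNA and rested on few reads, 0, 0 and 2 in LPS-EV against 24, 2 and 13 in VitD3-EV. miR-708 is encoded in an intron of Tenm4. The fitted log2FC was -5.04 ± 1.03 (FDR 3.61e-05), and the pooled ratio of reads was 36.6 with an exact 95% interval of 9.48 to 313. Its other arm miR-708-5p, with 3 reads in LPS-EV and 22 in VitD3-EV, missed the threshold (log2FC -3.28 ± 1.23, FDR 0.0581). miR-127-3p, from the imprinted Dlk1-Dio3 region, had 2, 0 and 7 reads against 11, 8 and 16 (log2FC -3.18 ± 0.82, FDR 0.00199), a pooled ratio of 7.30 (3.44 to 17.3). In LPS-EV 2, a count of 0 allows up to 70.6 normalized counts, so these folds are known only within wide limits.

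Several called miRNA are known from tissues other than DC, and their levels differed by replicate. miR-126a-3p, an endothelial miRNA encoded in Egfl7, had 208, 141 and 636 normalized counts in LPS-EV against 718, 467 and 1977 in VitD3-EV (log2FC -1.67 ± 0.37, FDR 0.000206). miR-143-3p, of smooth muscle and fibroblasts, had 33.8, 94.2 and 890.0 against 177, 156 and 2018 (log2FC -1.46 ± 0.44, FDR 0.00967). miR-199a-3p and miR-199b-3p, stromal miRNA with identical sequences and identical counts, had 0, 47.1 and 124 against 112, 62.3 and 442 (log2FC -2.35 ± 0.69, FDR 0.00802). They are 1 measurement, entered under both names wherever called miRNA are counted. All of these overlapped between groups and were highest in replicate 3 of each. In the fit without replicate 3, FDR was 0.215 for miR-126a-3p (1.34e-05 to 0.381 over all settings), 0.329 for miR-143-3p (0.00169 to 0.775) and 0.293 for miR-199a-3p (0.00188 to 0.577).

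The marker lists did not all follow these miRNA. Stromal markers (6 miRNA, the called miR-199a-3p and miR-143-3p among them) took 0.00346%, 0.0210% and 0.0989% of miRNA reads in LPS-EV and 0.0271%, 0.0177% and 0.183% in VitD3-EV, so VitD3-EV was higher in replicates 1 and 3 but not in replicate 2. Endothelial markers (both arms of miR-126a) took 0.0225%, 0.0210% and 0.0566% against 0.0661%, 0.0455% and 0.147%. Muscle markers (7 miRNA), led by miR-1a-3p, took 8.60% in LPS-EV 3 and 8.66% in VitD3-EV 3, but at most 0.0126% in replicates 1 and 2 of either group. Myeloid and other haematopoietic markers (6 miRNA) took 1.65%, 3.70% and 1.40% in LPS-EV and 0.799%, 0.906% and 0.662% in VitD3-EV. Of that list, 3 were called higher in LPS-EV (miR-155-5p, miR-146a-5p and miR-142a-3p) and 1 higher in VitD3-EV (miR-223-5p). Liver markers (3 miRNA) took 0.197%, 0.161% and 0.162% in LPS-EV against 0.111%, 0.0481% and 0.0880% in VitD3-EV. Neuronal markers (6 miRNA) took 0.0317%, 0.0315% and 0.0313% against 0.0119%, 0.0253% and 0.0155%. Both were higher in LPS-EV without overlap, and none of their tested members was called. In replicate 2 they rested on few reads, 46 against 19 for liver markers and 9 against 10 for neuronal markers. Shares of miRNA reads carry no TMM factors, and the class total as scale moved miRNA toward LPS-EV at the median. Epithelial markers (7 miRNA) took 0.0329%, 0.102% and 0.0387% against 0.0856%, 0.0354% and 0.0213%, and overlapped. Erythroid markers overlapped too. The lymphoid markers miR-150-5p and miR-150-3p were at 0 in all 6 libraries. Whether RNA of other cells or of serum contributed to the called miRNA was not tested.

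The remaining called miRNA were miR-181b-5p and miR-351-5p, both higher in VitD3-EV. miR-181b-5p, of a family active in lymphocytes, had 479, 235 and 546 normalized counts in LPS-EV against 839, 997 and 1189 in VitD3-EV (log2FC -1.23 ± 0.37, FDR 0.0085). miR-351-5p, from a cluster on the X chromosome that shares its seed with miR-125a-5p and miR-125b-5p, had 78.9, 23.5 and 28.2 against 149, 156 and 179.7 (log2FC -1.82 ± 0.66, FDR 0.0474). No library crossed for either. However, miR-181b-5p kept its call in 14 of 22 settings and lost it when any 1 of the replicates was left out. miR-351-5p rested on 1 to 16 reads per library and kept its call in 8 of 22 settings.

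miR-21a-5p, a growth-promoting miRNA that dominated every library, took 47.8%, 51.9% and 40.7% of miRNA reads in LPS-EV and 56.6%, 67.0% and 54.4% in VitD3-EV. The groups did not overlap, but the difference stayed under 2-fold (log2FC -0.82 ± 0.23, FDR 0.00575). Besides this miRNA and miR-24-3p, miR-29a-3p (log2FC 0.80 ± 0.27, FDR 0.0246) and miR-103-3p (0.75 ± 0.27, FDR 0.0488) passed FDR below 0.05 without reaching 2-fold, which made 31 at FDR alone, 13 higher in LPS-EV and 18 in VitD3-EV. Calls depended on the scaling. With the class total alone as the scale, all miRNA moved by 0.39 in log2FC at the median and the 24 called split into 17 with more in LPS-EV against 7 with more in VitD3-EV.

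The lists of related miRNA were set against that background of 10.8% called. Of 17 miRNA known to respond to Toll-like receptors or NF-κB, 5 were called higher in LPS-EV, namely miR-155-5p, miR-146a-5p, both arms of miR-9 and miR-147-3p, and 1 lower, miR-222-3p. The other 11 were not called, among them the related miR-146b-5p (log2FC -0.28 ± 0.24, FDR 0.59). Also among the 11 was miR-21a-5p, which passed FDR below 0.05 toward VitD3-EV but stayed under 2-fold (log2FC -0.82 ± 0.23, FDR 0.00575). The list median was 0.33, with 10 positive and 7 negative log2FC. In the let-7 family 0 of 9 were called, with a median log2FC of -0.14. Its sign depended on the scale, since let-7f-5p moved from -0.02 to 0.47 with class total scaling. The miR-17-92 and miR-106b-25 clusters had 1 of 9 called (miR-19b-3p) and a positive log2FC in 8. All 4 members of the miR-29 family had a positive log2FC (median 0.71) and none was called, and in the miR-30 family 4 of 5 were positive with none called.

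On the VitD3-EV side, both Hox cluster miRNA tested were called, miR-10a-5p and miR-10b-5p. All 7 tested members of the cluster of let-7e, miR-99b and miR-125a and its paralogs had a negative log2FC (median -0.98), yet none was called. In the miR-181 family all 4 were negative and 1 was called, and in the family of miR-28, miR-151 and miR-708 1 of 6 was called with 3 of either sign. The miR-7 family had a single tested member, miR-7a-5p. Of the miRNA that the study singled out in these same samples, 4 of 4 named for LPS were called higher in LPS-EV and 8 of 10 tested that were named for VitD3 were called higher in VitD3-EV, which is no independent evidence of direction. The exceptions were miR-708-5p and miR-203-3p, the latter with 16.9, 329.5 and 118 normalized counts against 699, 280.4 and 111 (log2FC -1.52 ± 0.57, FDR 0.0581).

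The level in untreated cultures is set beside these. The control-EV mean lay between both groups for 10 of the 11 miRNA higher in LPS-EV, miR-9-5p being the exception, and for 16 of the 16 higher in VitD3-EV. Of the 11, 4 were called in LPS-EV against control-EV and 2, both arms of miR-9, were called lower in VitD3-EV against control-EV. Of the 16, 0 were called lower in LPS-EV against control-EV and 8 were called higher in VitD3-EV against control-EV. Both the 16 and the 8 include miR-199a-3p and miR-199b-3p, which have identical counts. For miR-10a-5p the log2FC was -0.59 in LPS-EV (FDR 0.682) and 1.60 in VitD3-EV (FDR 4.01e-05). These 2 contrasts share the control-EV libraries, and their difference is the comparison given here.

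A ratio of reads within a library needs no scaling between libraries, and was formed for 7 pairs that share a seed, a hairpin or a class. Each pair set a called RNA over a partner that was not called and was picked after the fitted values had been seen, so the ratios describe that choice and are no independent evidence. miR-146a-5p over miR-146b-5p was 0.0300, 0.0559 and 0.0278 in LPS-EV against 0.00818, 0.00796 and 0.00391 in VitD3-EV, 5.68-fold higher in LPS-EV. miR-27b-3p over miR-27a-3p was 9.80, 5.97 and 11.1 against 27.7, 35.5 and 30.2, 3.58-fold higher in VitD3-EV. For both pairs the groups were well apart in spite of the near identity of the sequences printed above, and reads matching both members could be counted at either. miR-222-3p over miR-221-3p was 1.30, 0.692 and 2.28 against 3.23, 3.13 and 2.90, 2.43-fold higher in VitD3-EV and without overlap.

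For the arms of miR-223, the 5p over 3p ratio was 6.06, 0.519 and 2.08 in LPS-EV and 7, 16.5 and 6.04 in VitD3-EV. The 5p arm was the more frequent in 5 of these 6 libraries, LPS-EV 2 being the exception, and the groups overlapped narrowly. The two-sided exact permutation test of 3 against 3 libraries cannot go below p = 0.1, which the 3 non-overlapping miRNA pairs and Rny3 over Rny1 reached (adjusted over 7 pairs, p = 0.175). For miR-223 and for miR-181b-5p over miR-181a-5p the exact permutation p was 0.2, and for miR-142a-3p over miR-142a-5p it was 0.4.

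**Figure D2:**
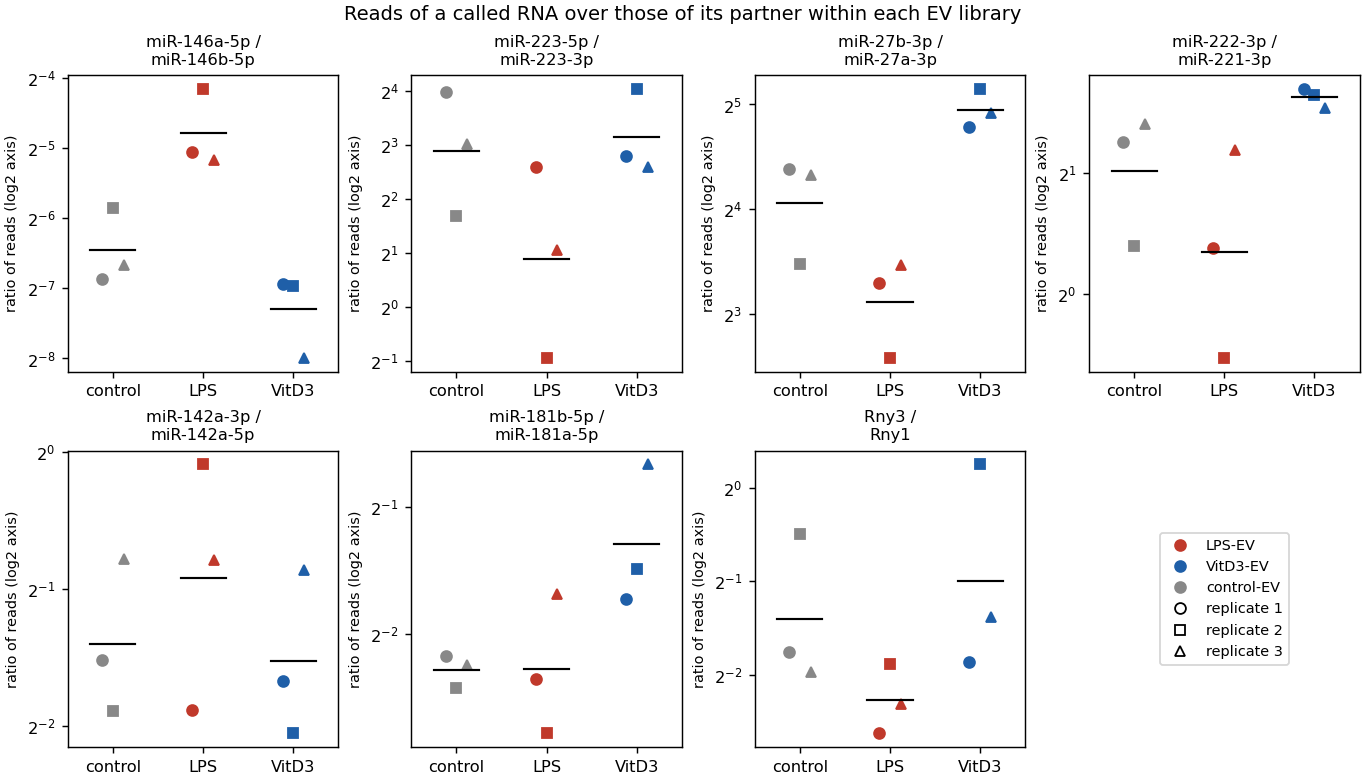
Ratio of reads of a called RNA to those of its partner (log2 axis) in each control-EV, LPS-EV and VitD3-EV library, with bars at the geometric mean of 3 libraries. miR-146a-5p over miR-146b-5p lies higher in LPS-EV, and miR-27b-3p over miR-27a-3p, miR-222-3p over miR-221-3p and Rny3 over Rny1 lie higher in VitD3-EV, with no overlap in these 4 panels. For Rny3 over Rny1 the groups nearly touch.

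Among sequence features that the choice of libraries did not use, the median GC content was 36.96% for the 10 sequences higher in LPS-EV, 45.5% for the 14 higher in VitD3-EV and 47.6% for all 216 tested miRNA with a sequence. This is a description over few sequences, some of them related, and carries no test. Median lengths were 23.0, 22.0 and 22.0 nucleotides.

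Outside miRNA, few RNA were called. Of 263 snoRNA tested 0 were called (0%), of 123 snRNA 1 (0.813%), of 39 miscRNA 1 (2.56%), and of 260 tRNA genes 0 (0%), whereas of 47 tRNA isoacceptors, summed over their gene copies, 1 was called (2.13%). For snoRNA, 10 passed an unadjusted p under 0.05 in edgeR's test, and DESeq2 called 0 and edgeR's likelihood ratio test 1. For tRNA genes, 20 passed an unadjusted p under 0.05, 11 higher in LPS-EV and 9 in VitD3-EV, with a lowest FDR of 0.0574, and DESeq2 called 5 and the likelihood ratio test 7.

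**Figure D3:**
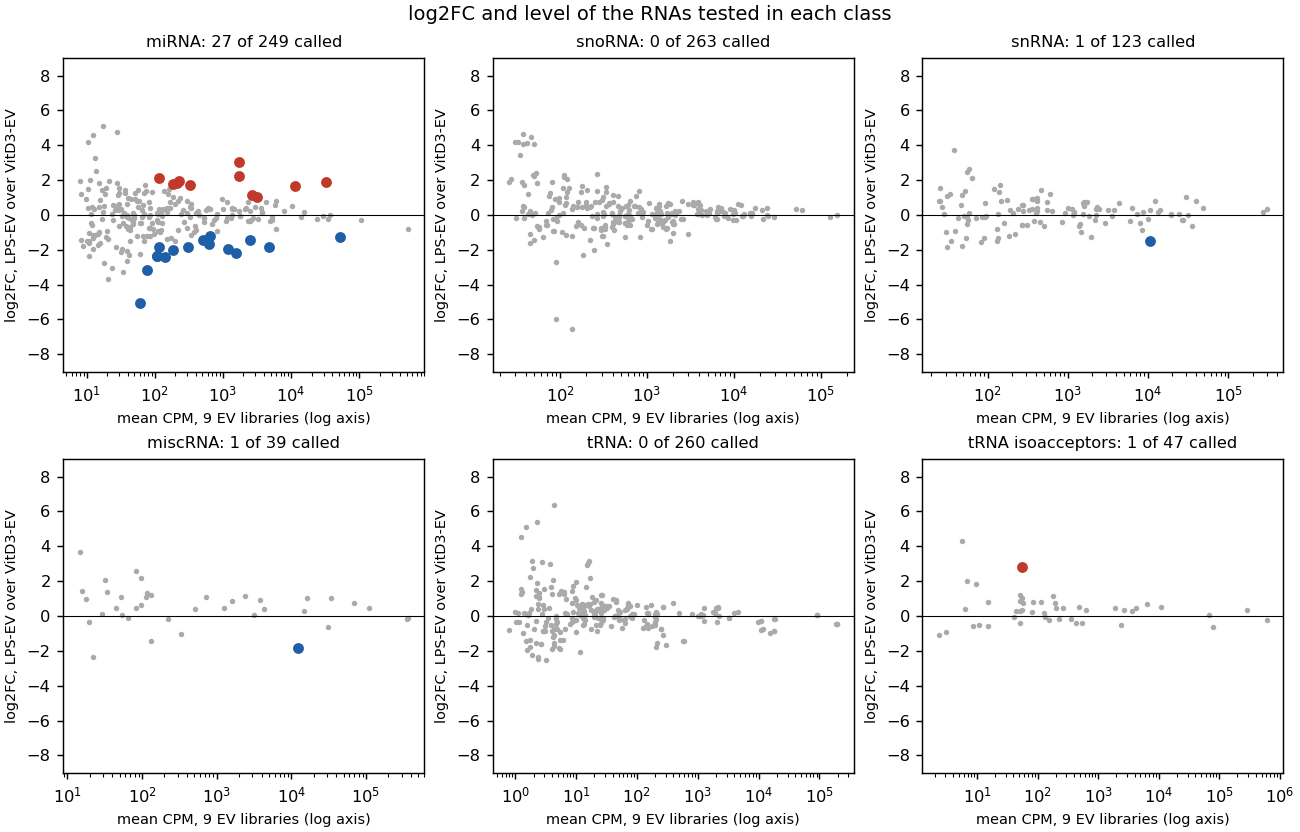
log2FC of LPS-EV over VitD3-EV against the mean normalized count over 9 EV libraries (log axis) for every RNA tested, 1 panel for each class, with called RNA in red (higher in LPS-EV) or blue (higher in VitD3-EV). The miRNA panel holds 27 called RNA, and the other panels 0 or 1 each.

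Rny3, a Y-RNA, was the called miscRNA, with 3732, 5794 and 4176 normalized counts in LPS-EV against 14909, 22028 and 11949 in VitD3-EV. All VitD3-EV libraries held more than any LPS-EV library. The log2FC was -1.81 ± 0.40 (FDR 0.0193). control-EV, at 8281, 27204 and 11830.5, lay near VitD3-EV, and LPS-EV was lower than control-EV (log2FC -1.64, FDR 0.0431). Without LPS-EV 2 the log2FC was -1.65 (FDR 0.201, within 4.07e-18 to 0.248 over settings), and the call held in 13 of 22 settings. Rny1, the other mouse Y-RNA, had 23042, 21345 and 20711 against 54330.2, 18484 and 31178 (log2FC -0.61 ± 0.43, FDR 0.48). The study's RT-qPCR, in contrast, found significant differences for Rny1 as well as Rny3, with less of each after LPS. On its Northern blots whole Rny1 fell in LPS-EV, whereas Rny1 fragments changed little. The study also reports that whole Rny1 was sequenced very inefficiently. Whether the counts given here stand for fragments or for whole Y-RNA was not tested. Rny3 over Rny1 was 0.162, 0.271 and 0.202 against 0.274, 1.19 and 0.383, 2.42-fold higher in VitD3-EV. The groups barely missed overlapping, as LPS-EV 2, on 38 over 140 reads, nearly met VitD3-EV 1, and VitD3-EV 2 stood far above the rest. The pair lies within a short stretch of chromosome 6, Rny3 at chr6:47781624-47781724 and Rny1 at chr6:47788070-47788180, and both RNA are printed because they form the pair whose ratio is given.
Rny3: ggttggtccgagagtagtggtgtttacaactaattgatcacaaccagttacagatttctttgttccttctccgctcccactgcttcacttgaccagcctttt
Rny1: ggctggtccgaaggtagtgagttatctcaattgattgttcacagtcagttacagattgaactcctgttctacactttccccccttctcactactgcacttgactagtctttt
The other polymerase III transcripts of the class were not called. The 3 7SL RNA, scaffolds of the signal recognition particle, had a median log2FC of -0.13, and Vaultrc5, the vault particle RNA, 0.30 ± 0.45 (FDR 0.755).

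The called snRNA gene was Gm22513, which had 254, 22 and 383 reads in LPS-EV and 253, 126 and 1246 in VitD3-EV. VitD3-EV 3 stood far above the rest, at 39969.5 normalized counts against 2488 to 8979 in the other 5 libraries, and the groups overlapped. Without that library the log2FC went from -1.50 ± 0.42 (FDR 0.0473) to -0.80 (FDR 0.989, within 0.000894 to 0.999 over settings). Reads of near-identical snRNA gene copies could have been split between them, so the gene of origin is uncertain.

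tRNA-Ile with anticodon AAT, the called isoacceptor, had 73, 83 and 45 reads in LPS-EV against 26, 6 and 3 in VitD3-EV, or 46.1, 271 and 43.8 against 26.6, 6.92 and 5.38 normalized counts. The groups did not overlap, with LPS-EV 2 highest. The log2FC was 2.83 ± 0.74 (FDR 0.0482), and all 7 tested gene copies had a positive log2FC, of which 4 passed an unadjusted p under 0.05. Without replicate 2 the log2FC was 1.35 (FDR 0.313, between 0.00952 and 0.574 over all settings), and without replicate 1 it was 4.38 (FDR 0.0967). The isoacceptors GluCTC (log2FC -0.21 ± 0.76) and GlyGCC (0.33 ± 0.65), which had the most reads, were not called.

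snoRNA that are often used as reference RNA were close between the groups. Snord65 had a log2FC of 0.10 ± 0.22 (FDR 0.923) and Snord68 of 0.42 ± 0.34 (FDR 0.797). The study lists primers for both, and it selected its reference RNA from these same sequencing data for comparable levels between conditions. If both were so selected, their closeness here follows from that choice and is no independent evidence of stability. Box families did not lean either way: of 35 H/ACA snoRNA tested 17 had a positive log2FC, and of 76 C/D snoRNA 42. The study names Snora2b, Snora32 and Snora55 as different between these groups at FDR below 0.05. Snora2b had 0 reads in LPS-EV and 0, 0 and 10 in VitD3-EV, so a single library carried it. No row bore the name Snora32 or Snora55, so the study's result for those was not examined. Among the 5 most-read snRNA, log2FC were -0.61 to 0.79, and among the 5 most-read miscRNA -0.15 to 1.02, none of them called.

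The share of each class among counted reads did not separate the groups. miRNA took 7.54% ± 1.46 (SD, n = 3) of LPS-EV reads against 7.57% ± 5.41 of VitD3-EV reads, and tRNA 55.4% ± 20.0 and 57.1% ± 18.4. The exact permutation p, two-sided, was 0.7 for miRNA and 0.8 for tRNA, and 0.4 to 1 for the other 4 classes, where 0.1 is the smallest that 3 against 3 libraries allow. Libraries of 1 group differed more than the group means, as LPS-EV 2 held 32.9% tRNA and LPS-EV 1 71.1%. The libraries had been pooled from size fractions in a fixed ratio, so these shares describe the sequenced pools and not the EV directly.

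**Figure D4:**
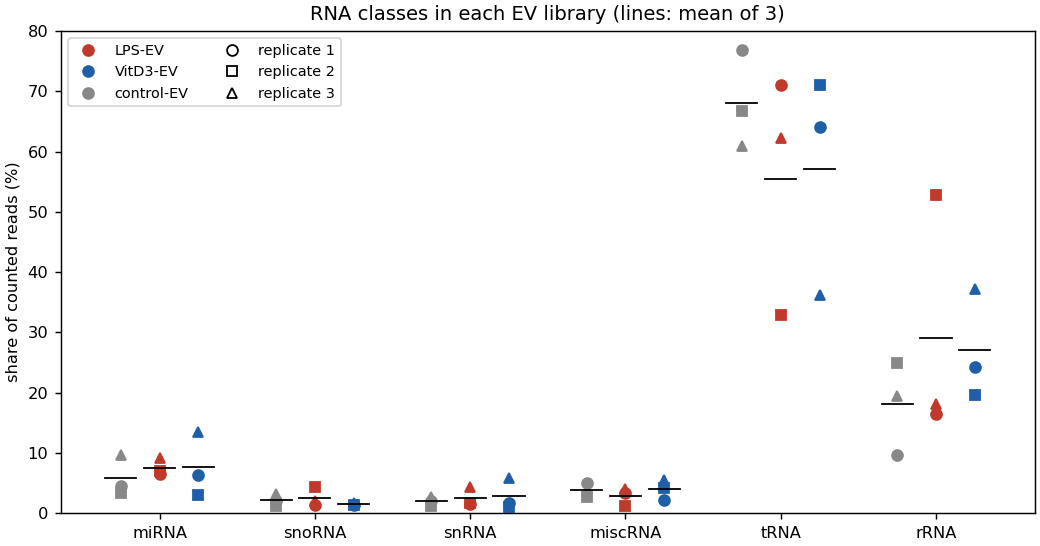
Share of counted reads (%) taken by each RNA class in every control-EV, LPS-EV and VitD3-EV library, with bars at the mean of 3. For tRNA the LPS-EV libraries span 32.9% to 71.1%, around a mean of 55.4% that lies close to the 57.1% of VitD3-EV.

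Parent cells of each condition were sequenced as well, which allowed the question whether the EV differed as their cells did. In cells, 25 of 418 miRNA (5.98%) were called between LPS-DC and VitD3-DC, 11 higher in LPS-DC and 14 in VitD3-DC. VitD3-DC 2 was sequenced in run 2, whereas LPS-DC 2 and control-DC 2 were in run 1, so the replicate block did not hold the run there. Without VitD3-DC 2, in a fit chosen after seeing the data, 25 were called, 20 of them among those above. Of the 27 called in EV, 26 were tested in both, 24 had the same sign in cells, against 158 of all 239 (66.1%), and 10 were called there too, which is 37.04% of the EV calls and 40% of the cell calls. miR-155-5p had 4369, 5339.6 and 3798 normalized counts in LPS-DC against 838, 118 and 839 in VitD3-DC (log2FC 3.37 ± 0.55, FDR 0.00155). miR-10a-5p had 512, 505 and 1133 against 1563, 3564 and 3672 (log2FC -2.05 ± 0.31, FDR 0.000999). Both resembled the values in EV in direction and in size. miR-708-3p was likewise called in cells, at 10.49, 5.06 and 17.4 against 167, 42.4 and 245 (log2FC -3.68 ± 0.44, FDR 0.000247).

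In a test of the difference between the EV and the cell contrasts, 0 of 239 miRNA were called (0%), with 13 at an unadjusted p under 0.05 and 0 called by the likelihood ratio test. miR-146a-5p had a log2FC of 2.20 ± 0.32 in EV and 1.19 ± 0.29 in cells, a difference of 1.02 ± 0.43 (FDR 0.702). miR-10b-5p had -1.92 ± 0.53 in EV and 0.90 ± 0.60 in cells, a difference of -2.82 ± 0.81 (FDR 0.597), and it was called only when replicate 2 was left out. miR-143-3p was the other miRNA with opposite sign, at -1.51 ± 0.50 in EV and 0.53 ± 0.62 in cells (FDR 0.702). Both were rare in cells, where miR-10b-5p had 2.10, 0 and 29.3 normalized counts in LPS-DC and 0.618, 0.799 and 12.4 in VitD3-DC.

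**Figure D5:**
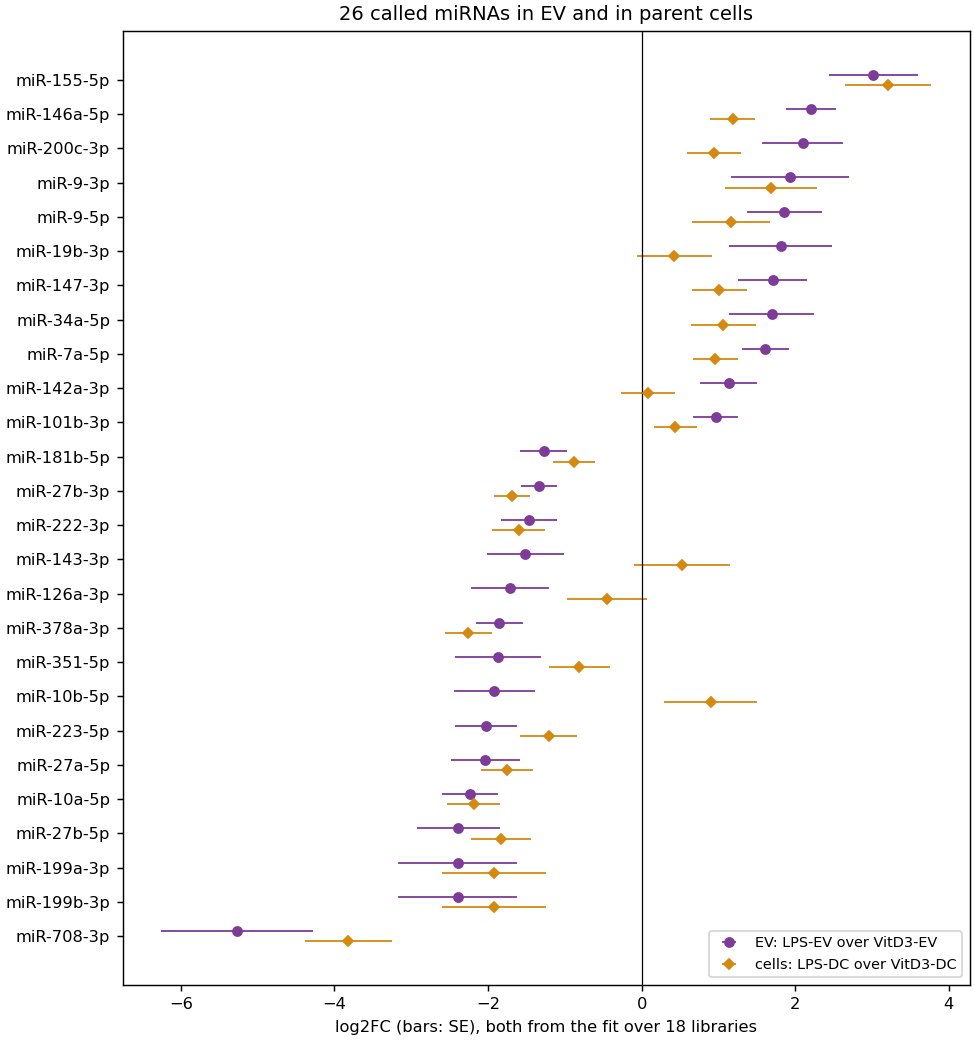
log2FC of LPS over VitD3 for 26 miRNA called in EV, in EV (purple circles) and in parent cells (orange diamonds), with bars for the SE of a fit over 18 libraries. The markers lie on the same side of 0 for 24 miRNA, and on opposite sides for miR-10b-5p and miR-143-3p.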

How the data were processed

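Small RNA of EV and parent cells was sequenced after rRNA depletion and size fractionation. The authors trimmed reads (cutadapt 1.8 per the processing notes), aligned them to mm10 with gsnap and deposited raw read counts per annotated RNA (HTSeq 0.6.1p1). The table held 6017 rows, and repeated rows of a mature miRNA name were collapsed, giving 1907 names from 2045 rows. RNA with at least 10 reads over the 9 EV libraries were tested within each class with edgeR 4.0.16 (R 4.3.3), using TMM factors of that class, all 9 EV libraries, group and replicate number as terms, and Benjamini-Hochberg adjustment within the class. Rows typed as ribozyme, scRNA, sRNA, scaRNA or rRNA were not tested. An RNA was called at FDR below 0.05 and over 2-fold. The SE of a log2FC is its size divided by the square root of F. Shares and ratios were compared by two-sided exact permutation tests (scipy 1.17.1), and intervals are exact at 95%. The fits were checked on simulated data. Alternatives included DESeq2 1.42.0, edgeR's likelihood ratio test, other scalings and filters, and each library left out.

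The replicate numbers come from the labels, and the study's methods describe triplicate experiments on different days with the day as a term of the fit. Over miRNA, deviations from group means correlated between same-numbered LPS-EV and VitD3-EV libraries at r = 0.350, 0.170 and 0.719, against -0.598 to 0.378 for other pairs. LPS-EV 2 correlated more with VitD3-EV 1 (0.378) than with VitD3-EV 2, and LPS-EV 1 with VitD3-EV 2 at 0.324. Only replicate 3 stood apart, and it alone was in run 2. These correlations therefore cannot show whether replicates 1 and 2 are paired, and the pairing rests on the labels and the study's methods.

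Gene lists, members and tests were chosen with earlier results of these data known. Named RNA were, by rule, up to 12 called miRNA a direction and up to 5 RNA for the other classes, taken by p among those with 3 of 3 pairs alike, their other arms, RNA the study names, list members and the 5 most abundant of each class. The remaining called miRNA, the ratios, and miR-221-3p as a partner were added after their values had been seen.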

Additional observations from a re-analysis of the deposited data

How the results depend on the processing

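Of the 27 called miRNA, 8 were called under every alternative except the fit without the replicate block, and 9 in all 12 fits that left out a replicate or library. Without the replicate block, the counts of calls were 4 for miRNA, 0 for snRNA and 0 for miscRNA, and log2FC changed sign for miR-199a-5p (0.14) and let-7f-5p (0.16). With the replicate block in place, other tests, scalings and filters gave 21 to 36 called miRNA. Leaving out replicates or libraries gave 11 to 29 for miRNA, 0 to 3 for snRNA, 0 to 1 for miscRNA, 0 to 6 for tRNA, 0 to 1 for isoacceptors and 0 to 1 for the difference between EV and cells.

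snRNA calls were 0 by the likelihood ratio test, DESeq2, the 6 libraries alone, class total scaling and filterByExpr, and 2 with TMM over all classes. miscRNA calls were 0 with class total scaling and with a minimum of 1 read, and isoacceptor calls 0 with class total scaling. The likelihood ratio test called 1 snoRNA and 7 tRNA. tRNA calls were 5 by DESeq2, 3 with a minimum of 1 read and 4 with FDR over all 5 classes. Without rRNA in the total the log2 ratio of tRNA shares was 0.022 in place of -0.059. Leaving out a replicate number gave log2 ratios of shares of -0.26 to 0.65 for miRNA, 0.07 to 0.98 for snoRNA, -0.28 to 0.31 for snRNA, -1.13 to 0.061 for miscRNA, -0.48 to 0.47 for tRNA and -0.80 to 0.43 for rRNA.

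RNA that were not called changed sign. With class total scaling, log2FC was 0.20 for miR-146b-5p, 0.47 for let-7f-5p, 0.17 for miR-1a-3p and 0.27 for miR-221-3p. With TMM over all classes it was 0.068 for miR-146b-5p, 0.34 for let-7f-5p and 0.11 for miR-221-3p. With DESeq2 size factors it was -0.00735 for miR-223-3p and -0.023 for Snord65, which DESeq2 put at -0.025. For miR-223-3p it was -0.057 with a minimum of 1 read and -0.042 with filterByExpr. Leaving out replicates or libraries, log2FC was -0.14 to 4.74 for miR-155-3p, -0.18 to 0.55 for miR-147-5p, -0.58 to 0.43 for miR-223-3p, -2.63 to 0.21 for miR-199a-5p, -2.55 to 0.13 for miR-203-3p, -0.091 to 0.74 for Snord68, -0.57 to 0.092 for miR-146b-5p, -0.32 to 0.45 for let-7f-5p and -0.57 to 0.28 for miR-1a-3p. The log2 ratio difference of miR-142a-3p over miR-142a-5p was -0.0709 to 1.02, in fits chosen after seeing the data. The cause was not tested for any of these. Depth limits replicate 2 most, where 3 reads are 70.6 normalized counts in LPS-EV and 93.5 in VitD3-EV.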
